A study of Homo sapiens with 4 samples.

Results

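Chromosome 3 carried 250 of the 5211 H3K9me3 regions found in BJ-HELT cells, or 4.80% of the list (95% Wilson interval 4.25 to 5.41%, counting error only). The interval takes regions as independent draws, which they are not. The members are all listed regions on that chromosome. The 15 Mb stretch that begins at 130 Mb (hg19, a region placed by its midpoint) was selected on the number of regions it holds in this same list, so its number of regions and their spacing are given as a description, with no test. It held 152 of the 250, and 98 lay elsewhere on the chromosome. BJ-HELT cells are human foreskin fibroblasts made immortal with hTERT, the catalytic subunit of telomerase, and the early region of SV40, so every library comes from a single transformed line and none from normal fibroblasts. Chromatin was taken at passages 10 to 11 from 2 H3K9me3 immunoprecipitates and 2 input DNA libraries. The values used here are 1 list of regions for all 4 libraries together, each with a whole-number count, so values carry no replicate error and no difference could be set against the spread between libraries. The cells' identity cannot be checked from such a list, since it holds no expression values.

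H3K9me3, trimethylated lysine 9 of histone H3, is the classical mark of constitutive heterochromatin. It is written by the SUV39H and SETDB1 methyltransferases and bound by HP1 proteins, which compact the chromatin. It is known for its place on satellite repeats beside centromeres, on silenced transposable elements and on clusters of KRAB zinc finger genes. The list has the form given by SICER, a program that calls such broad domains. A region's count per kb (its count divided by its length) is given below beside its count, since counts alone grow with length. The counts were not set against input here, so they are not a measure of enrichment.

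Chromosome 3 was crowded in 1 place and held few regions nearly everywhere else. From the first region (543801 to 545400) to the last (197841001 to 197846600) it spanned 197.3 Mb, and regions covered 1146 kb, or 0.58%, of that span. Ranked from the highest of the 22 autosomes, it was at 9 with 1.27 regions per Mb. Its median region length was 3800 bp (rank 12), and its median of 30.2 counts per kb was rank 17. Among the 40 bins of 5 Mb, 11 held no region. The 3 bins from 130 Mb on held 52, 61 and 39 regions, and no other bin held more than 13.

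**Figure D1:**
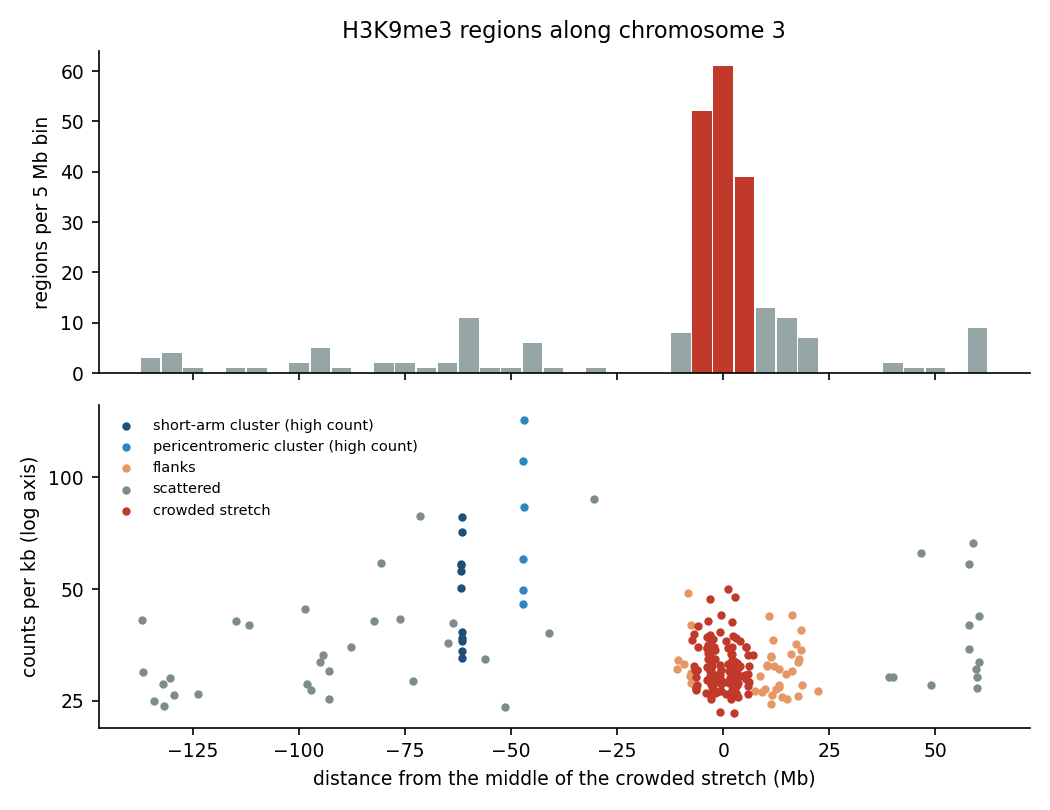
Upper panel, number of H3K9me3 regions in each 5 Mb bin of chromosome 3, with the crowded 15 Mb stretch in red; lower panel, counts per kb of each of the 250 regions on a log axis, coloured by part. The horizontal axis is the distance in Mb from the middle of the stretch. The 3 red bins hold 52, 61 and 39 regions, and the highest counts per kb, up to 142.6, lie outside them.

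The crowded stretch lies on the long arm, in a part of the chromosome that holds ordinary protein-coding genes. From general knowledge of the chromosome, genes located there include CPNE4 (a copine, a calcium-dependent membrane-binding protein), EPHB1 (an ephrin receptor tyrosine kinase), STAG1 (a cohesin subunit), CLSTN2 (a calsyntenin of synapses) and SLC9A9 (a sodium/proton exchanger of endosomes). In the RefSeq gene order on GRCh38, 73 protein-coding genes stand from CPNE4 to SLC9A9, both included, and no other part was counted for comparison. Those positions are on another build than the list, so no region was tied to a gene, and whether regions fell on genes, introns or repeats was not tested.

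The stretch had 10.1 regions per Mb against 0.54 in the remaining 182.3 Mb of the span, a ratio of 18.9. Its regions covered 692.4 kb, or 4.62% of the stretch, against 453.6 kb, or 0.25%, of the rest. It thus held 60.8% of the chromosome's regions and 60.4% of the covered length, but 51.7% of the total count of 39609. Neighbouring regions inside the stretch were separated by a median of 29.0 kb (quartiles 9.50 and 65.2 kb, 151 gaps). Elsewhere the median gap was 465.4 kb (quartiles 76.2 and 1834 kb, 96 gaps). Gaps under 100 kb made up 82.8% of those in the stretch and 30.2% of those elsewhere. Over the whole list, which takes in X and Y, the share was 61.3%, and the median gap was 56.6 kb. Of its 5211 regions, 3132 lay on other autosomes, and gaps were not summarised for those alone. Gaps of 1 Mb or more numbered 2 inside and 31 outside.

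**Figure D2:**
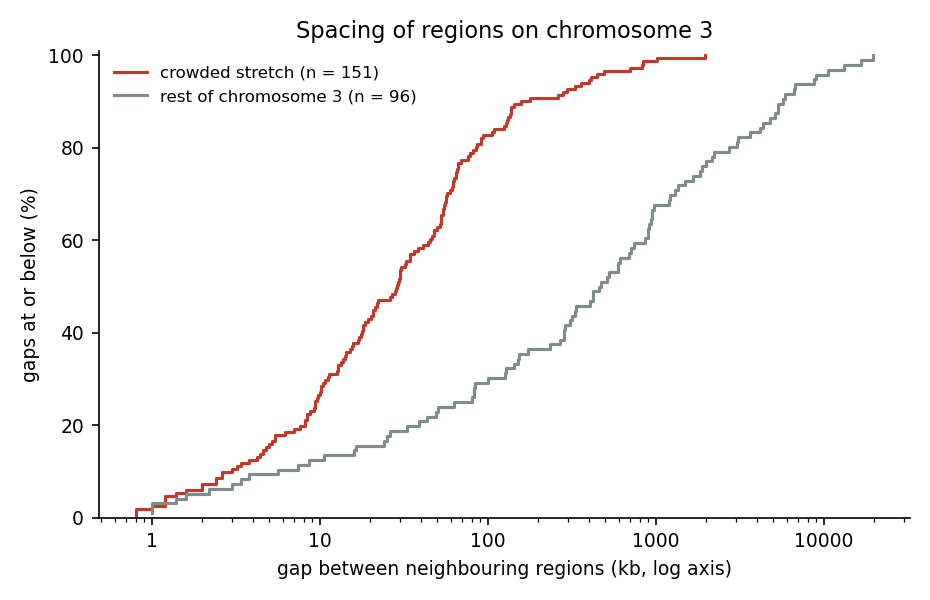
Cumulative percentage of gaps at or below a given size (kb, log axis), for neighbouring regions both inside the stretch (red, 151 gaps) and both outside it (grey, 96 gaps). The red curve lies to the left of the grey one from gaps of a few kb upward, with medians of 29.0 and 465.4 kb.

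The limits of the stretch did not coincide with a sharp edge. The last region before 130 Mb (129975401 to 129979000) had 107 counts over 3.6 kb, and the first inside (130206201 to 130208200) had 73 over 2.0 kb. At the other end, the last region inside (144623801 to 144626600) had 93 counts over 2.8 kb, and the first beyond (145070401 to 145078000) had 202 over 7.6 kb. Regions went on at a lower number on both sides: 8 in the 3.42 Mb before the stretch and 31 in the 14.8 Mb after it, or 2.14 per Mb over both flanks. The stretch held 4.74 times that number per Mb. The flanks in turn ended at the 2 longest gaps of the chromosome, 19.6 Mb without a region from 106987401 to 126582200 and 16.8 Mb from 159813601 to 176565200. Between those gaps, 33.2 Mb held 191 regions, 76.4% of the chromosome's total. The other 59 regions were spread over 164.1 Mb, at 0.36 per Mb. The next longest gaps, 13.3 Mb (25587401 to 38859400), 10.6 Mb (96392801 to 106987000) and 8.98 Mb (186393401 to 195369000), also lay outside the stretch. A gap shows that nothing passed the list's threshold there, which is not known; it does not show that the mark was absent.

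Regions were unevenly spread within the stretch. Of its 15 bins of 1 Mb, 5 held 10 or more regions and together had 100 of the 152 (65.8%). The fullest were 134 to 135 Mb with 28 regions, 139 to 140 Mb with 24 and 140 to 141 Mb with 22. In 1 bin no region had its midpoint, and the longest gap inside the stretch, 1.96 Mb from 131592401 to 133549200, ran across it. Further gaps of 1.01 Mb (143614001 to 144623800), 0.84 Mb (137199401 to 138035200) and 0.83 Mb (135955201 to 136782400) separated groups of regions. The stretch was therefore a series of groups of regions, with gaps between them where no region was listed.

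Joining regions under 100 kb apart placed 142 of the 152 into 17 clusters of at least 2 regions and left 10 alone. Elsewhere on the chromosome, 44 of 98 regions fell into 15 clusters and 54 were single. The largest cluster by number (134330001 to 135508400) had 42 regions over 1178.4 kb, of which 203.6 kb, or 17.3%, was covered. It lies in the part of the chromosome where EPHB1 is known to be. The next (139365201 to 140270400) had 31 regions over 905.2 kb, 15.5% of it covered, and lies towards CLSTN2. These are again remarks from general knowledge and not overlaps. Another cluster (136782401 to 137199400) had 13 regions over 417.0 kb. The first 2 of these clusters took up 13.9% of the stretch and held 48.0% of its regions (73 of 152), at 35.0 regions per Mb. The remaining clusters of the stretch had at most 9 regions each, the largest of them between 133688401 and 133865400.

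**Figure D3:**
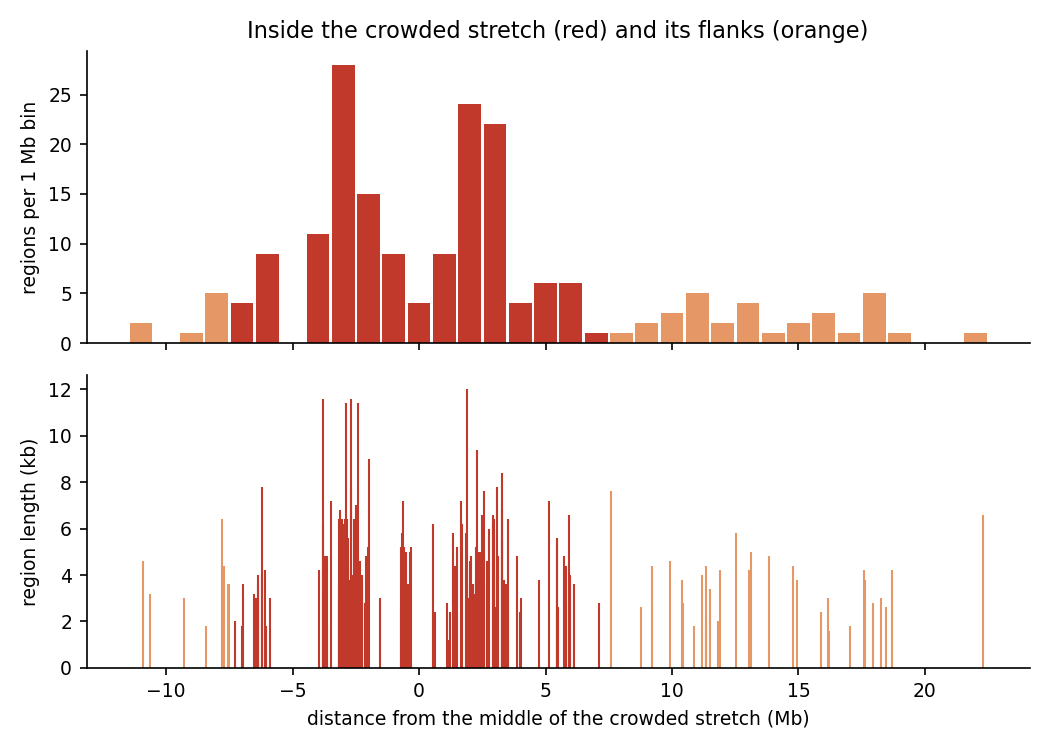
Upper panel, regions per 1 Mb bin in the stretch (red) and its flanks (orange); lower panel, length in kb of each region at its position. The horizontal axis is the distance in Mb from the middle of the stretch. Regions stand in 2 main groups on either side of the middle, with bins of 28 and 24 regions, and no region is longer than 12.0 kb.

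The regions of the stretch were a few kb long. Their length ranged from 1.2 to 12.0 kb with a median of 4000 bp (quartiles 3000 and 5800 bp), and 136 of 152 (89.5%) measured 2 to 8 kb. None was 1 kb or shorter. On other autosomes 3.77% were, and the median length was 4000 bp (quartiles 2800 and 5600 bp). In the stretch, 5 regions (3.29%) measured 10 kb or more, against 8.01% on other autosomes. These 5 also had the highest counts of the stretch. The longest of them, 12.0 kb (139372601 to 139384600), had 303 counts, or 25.2 per kb. Another of 11.6 kb (134796401 to 134808000) had the highest count of the stretch, 343. The others had 331 counts over 11.6 kb (133688401 to 133700000), 316 over 11.4 kb (134618801 to 134630200) and 306 over 11.4 kb (135089401 to 135100800). Of these 5 long regions, 4 lay between 133688401 and 135100800 and 1 in the cluster that followed in number of regions. The rest of the chromosome had a median length of 3600 bp (quartiles 2450 and 4800 bp), and a range of 0.4 to 27.6 kb. Without the 2 high-count clusters described below, its longest region measured 9.6 kb.

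The median count per kb in the stretch was close to that of other autosomes. Values ran from 23.2 to 50 counts per kb with a median of 29.5 (quartiles 27.8 and 32.4), and 6 regions exceeded 40. The median of the regions on other autosomes was 30.9, and that of the whole list, which takes in X and Y, was 36.3. The rest of chromosome 3 had a median of 32.5 counts per kb (quartiles 28.0 and 41.2) and reached 142.6. The median per kb thus differed by a factor of 0.91, while the sum of counts over the sum of lengths differed by 0.70 (29.6 against 42.2). The highest values of the stretch belonged to its shortest regions: 50 per kb for 60 counts over 1.2 kb (138680401 to 138681600), 47.5 for 57 over 1.2 kb (140269201 to 140270400) and 47.1 for 66 over 1.4 kb (134422401 to 134423800). The lowest, 23.2 per kb, was that of a 7.6 kb region with 176 counts (140073401 to 140081000). In the 5 bins of 1 Mb with 10 or more regions, the median ran from 28.3 to 33.5 counts per kb. The bin with the most regions had 29.1.

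Count followed length closely in the stretch. Across its 152 regions, which share all libraries and are not independent, Spearman's rho was 0.97 between length and count and -0.60 between length and count per kb. A straight line through them had 25.7 counts per added kb and an intercept of 17.5 counts, so a short region had more counts per kb than a long one. For the 81 regions of the rest outside the 2 high-count clusters described below, the line had 27.3 counts per added kb and an intercept of 14.0.

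Set against regions of the same length, the stretch had counts close to those of other regions at most lengths, with lower counts for its longest regions. At the 20 lengths from 1.2 to 7.2 kb with at least 2 regions on each side, the median count of the stretch was lower than that of the rest at 13 and higher at 7. The median ratio was 0.97 (quartiles 0.93 and 1.06). Without the 2 high-count clusters it was 0.99 over 18 lengths, lower at 10 and higher at 8. Against the other autosomes the ratio was 1.02 over 29 lengths (quartiles 0.98 and 1.05). At the longest of these lengths it was lower, 0.62 at 11.4 kb and 0.69 at 11.6 kb. Each rests on 2 regions of the stretch, against only 5 and 2 on other autosomes. Where at least 10 regions of a length were in the whole list, 147 regions of the stretch could be set against the lowest count at their length. Their counts were 1.04 to 1.69 times that lowest count, with a median of 1.31. The median was 1.29 for the other autosomes, whose values, over many more regions (2909), reached 80.2. Counts below the list's median for their length were found for 57.1% of these regions of the stretch and 58.9% of those on other autosomes. The 5 regions of the stretch of 10 kb or more were not among the 147, since the list held only 4 to 9 regions of their lengths. Their counts were 1 to 1.04 times the lowest at their length, but that lowest was itself a region of the stretch at each length. They were 0.61 to 0.90 times the list's median, which counts them in. The 8 regions of 10 kb or more elsewhere on chromosome 3 had 0.40 to 1.19 times the list's median for their length.

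**Figure D4:**
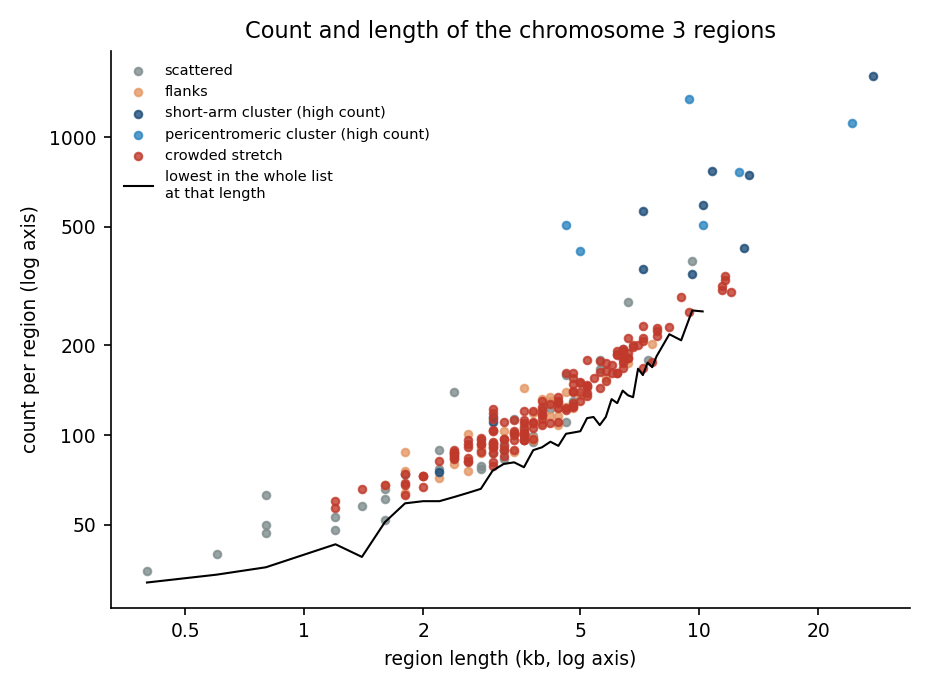
Count against length in kb for the 250 regions of chromosome 3 (both axes logarithmic), coloured by part. The black line joins the lowest count in the whole list at each length, for lengths found on chromosome 3 that have at least 10 regions in the list. Regions of the stretch (red) at those lengths follow the line at 1.04 to 1.69 times its level. Several regions of the short-arm and pericentromeric clusters (blue) lie far above it.

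The 12 highest counts on chromosome 3, and its 2 highest counts per kb, were in 2 compact clusters outside the stretch. Together their 17 regions were 6.80% of the chromosome's regions and 15.1% of its covered length, but held 26.1% of its count. The short-arm cluster (75679001 to 75998800) had 11 regions that covered 33.5% of 319.8 kb, with a median of 50.3 counts per kb. Its longest region, 27.6 kb (75729001 to 75756600), was the longest of the chromosome and had its highest count, 1603. From general knowledge this part of the short arm holds FRG2C, a member of a gene family also found beside the D4Z4 repeat at chromosome ends, and ZNF717, a KRAB zinc finger gene; overlap was not computed. Counts per kb were not even within the cluster. From 75679001 to 75805200 its first 6 regions had 50.3 to 78.2 counts per kb, and the 5 that followed had 32.6 to 38.3.

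The pericentromeric cluster (90317601 to 90480000) had 6 regions that covered 40.8% of 162.4 kb, with a median of 71.7 counts per kb. From general knowledge it borders the centromere from the short arm, though overlap with the centromere was not computed. After this cluster no region was listed for 5.91 Mb. The region at its inner end (90470601 to 90480000) had 1340 counts over 9.4 kb, or 142.6 per kb, the highest of the chromosome and of the 15 listed regions of that length. Others there had 110.4 counts per kb (90364601 to 90369200, 508 counts) and 83.0 (90426601 to 90431600, 415 counts), and the longest measured 24.4 kb (90331601 to 90356000, 1113 counts). No such cluster was listed after that gap: the next region (96391201 to 96392800) had 61 counts over 1.6 kb. Whether reads could be placed within the gap was not tested, so the 2 sides of the centromere cannot be compared.

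By number of regions, local crowding in these 2 clusters was within the range of the clusters of the stretch. Per Mb of cluster, the short-arm cluster had 34.4 regions and the pericentromeric one 36.9, against 35.0 in the 2 clusters of the stretch with the most regions and 50.8 in that of 9 regions between 133688401 and 133865400. The covered share was higher, 33.5% and 40.8%, against 13.5 to 22.7% in the clusters of the stretch with 9 or more regions. Smaller clusters of the stretch reached 39.4%. All 8 regions of 10 kb or more outside the stretch belonged to the 2 high-count clusters. They had 5 of the 10 longest regions of the chromosome, and the stretch had the other 5. In the clusters, regions of 10 kb or more included 748 counts over 13.4 kb (75712201 to 75725600), 767 over 10.8 kb (75784201 to 75795000), 761 over 12.6 kb (90370601 to 90383200) and 424 over 13 kb (75824401 to 75837400). All of these counts were above those of the 5 long regions of the stretch, 303 to 343. Without the 2 clusters the rest of the chromosome had a median of 31.0 counts per kb, against 29.5 in the stretch.

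The remaining 42 regions outside the flanks and clusters were scattered. Their median length was 3100 bp, and their median 32.1 counts per kb. The 5 regions of the chromosome that were 1 kb or shorter were all among them, from 35 counts over 0.4 kb (106987001 to 106987400, 87.5 per kb) to 63 over 0.8 kb (65922401 to 65923200, 78.8 per kb). Near the end of the long arm, 9 regions lay beyond 195 Mb. A pair of them in a part of the chromosome known to hold MUC4, a membrane mucin gene with a long tandem repeat in its coding sequence, had 140 counts over 2.4 kb (195502601 to 195505000, 58.3 per kb) and 383 over 9.6 kb (195506001 to 195515600, 39.9 per kb). The last region of the chromosome had 31.8 counts per kb and the first 41.2, well below the 142.6 beside the centromere.

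The 5 crowded stretches picked on other chromosomes had median lengths and counts per kb close to those of the chromosome 3 stretch. Of 543 windows of 15 Mb on autosomes, started every 5 Mb, 6 held 152 or more regions: the stretch itself and 5 on chromosome 20, the fullest with 190. The median window held 7. Not every crowded window was alike. Chromosome 16 from 25 to 40 Mb had 98 regions, with medians of 4800 bp and 33.5 counts per kb. Chromosome 21 from 5 to 20 Mb had 65, with 7600 bp and 40 counts per kb. Chromosome 19 from 45 to 60 Mb, with 108 regions, was closer to the stretch at 4200 bp and 29.0 counts per kb. On chromosome 20 from 25 to 63 Mb there were 10.3 regions per Mb with a median of 4200 bp and 28.9 counts per kb. On chromosome 16 from 65 to 85 Mb there were 7.80 per Mb, with 4400 bp and 28.5 counts per kb. On chromosome 8, in the 10 Mb from 135 Mb, there were 9 per Mb, with 4100 bp and 28.4 counts per kb. The chromosome 3 stretch, with 10.1 per Mb, 4000 bp and 29.5 counts per kb, was within 0.4 kb of the 3 others in median length and within 1.1 of them in median counts per kb. Their median gaps were 34.4, 45.4 and 34.6 kb, against 29.0 kb on chromosome 3. The stretch of chromosome 10 (5 Mb from 130 Mb) had 11.8 regions per Mb and a median gap of 44.8 kb, at 3800 bp and 28.5 counts per kb. That of chromosome 13 (95 to 115 Mb) was less crowded, with 5.25 regions per Mb and a median gap of 87.8 kb, at 4000 bp and 28.9 counts per kb. The highest values were less alike than the medians. They reached 446.9, 437.5 and 317.1 counts per kb on chromosomes 20, 8 and 10. On chromosomes 13 and 16 they reached 58.6 and 43.8, against 50 in the chromosome 3 stretch. These 5 stretches were picked as crowded after their values were seen, and not by rank of their number of regions. Nothing particular to chromosome 3 is therefore claimed from them. They differed in place. From the last region of the stretch to the last of the chromosome was 53.2 Mb on chromosome 3, 1.51 Mb on chromosome 8, 5.26 Mb on chromosome 16 and 0.51 Mb on chromosome 10, and on chromosomes 13 and 20 the stretch held the last region.

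**Figure D5:**
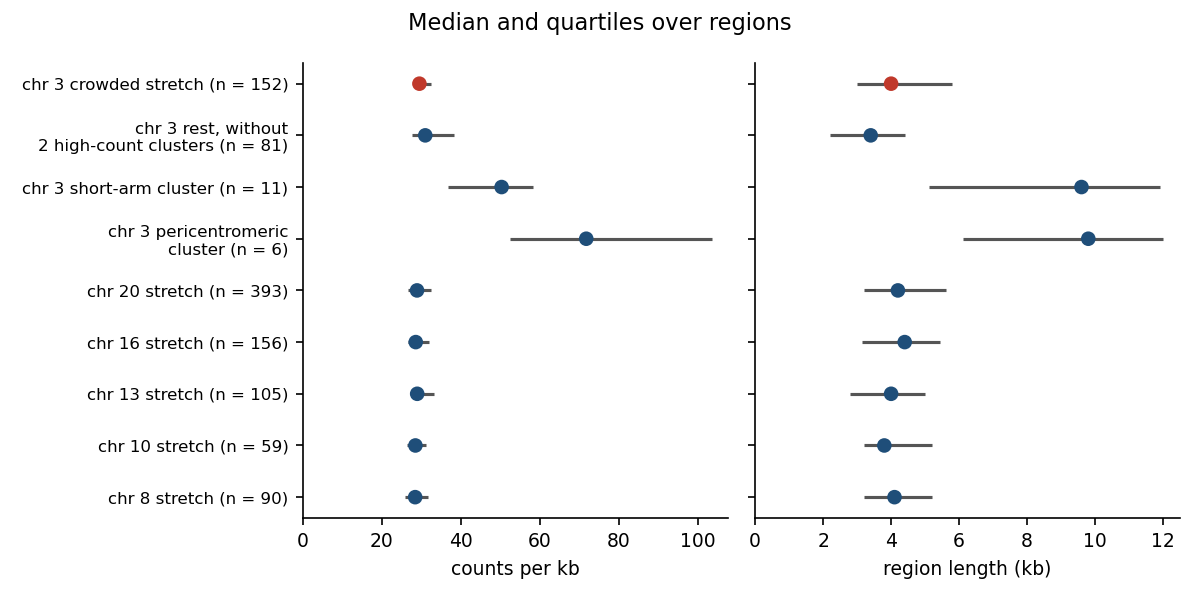
Median (point) and quartiles (line) over regions of counts per kb (left) and of region length in kb (right), for parts of chromosome 3 and for crowded stretches of 5 other chromosomes, with the number of regions in brackets. The crowded stretches shown, picked after their values were seen, have medians between 28.4 and 29.5 counts per kb. The 2 high-count clusters of chromosome 3 have 50.3 and 71.7.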

How the data were processed

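H3K9me3 ChIP and input libraries (2 each) were sequenced on the SOLiD platform. The submitters' processing notes name Bowtie and SICER, and hg19 and GRCh37 as builds; settings and any pooling before calling are not given in the sources here. The authors deposited 1 region list without a header, whose last column was read as raw counts of ChIP reads per region, from its whole-number values and the form of the list. Library depth is unknown. Positions are printed from 1, last base included.

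Length, counts per kb, end-to-start gaps and clusters (gaps under 100 kb) were computed. The rest of the chromosome is the span from first to last region less 15 Mb. For counts at equal length, each side needed 2 regions of a length. No test was run, since the list has no values per library and the stretch was chosen from it. Members, lists and naming rules were chosen with earlier results of these data known. Named are the 10 longest regions, the 5 highest by count and by counts per kb, the first 3 of each in the stretch, the 5 largest clusters, the 5 longest gaps, and regions at the limits. Other named regions, the 2 high-count clusters, the flanks and the like stretches were chosen after their values were seen. Functions were tested on simulated data. No genome of the build was used, so no sequence is shown. Python 3.11.15, numpy 2.4.6, pandas 2.3.3, scipy 1.17.1 and matplotlib 3.10.9 were used.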

Additional observations from a re-analysis of the deposited data

How the results depend on the processing

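Of 44 alternatives for 9 results, 37 kept the value within a set range and 7 moved it outside. For medians this was the 95% binomial range over the regions, gaps or lengths behind the median. For the ratio of regions per Mb it was that range over regions, and for the number of clusters 1.5 times. The range is only a yardstick for the size of a shift: regions are not replicates and the stretch was chosen on its number of regions, so it is no measure of stability. Chosen after seeing the data were 6 of the 44. The ratio of regions per Mb fell from 18.9 to 4.74 when the stretch was set against its flanks only. Dropping regions with counts under the list median of 112 raised the median gap of the stretch to 55.6 kb and the median length to 5600 bp in the stretch and 5300 bp in the rest, and lowered the median of the stretch to 28.75 counts per kb, as selection on count implies for length. Dividing summed counts by summed lengths gave 42.2 counts per kb for the rest, whose 2 high-count clusters hold long regions. A join distance of 500 kb gave 21 clusters in place of 32. At equal length, the ratio of the stretch to the rest was 1.00 with at least 3 regions of a length on each side, against 0.97. No paired analysis was possible because all libraries share a single list of values, and no replicate could be left out.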
